A study of Mus musculus with 6 samples.

Results

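The genes described here encode 9 receptors through which early blood progenitors sense growth factors: Kit, Flt3, Csf1r, Csf3r, Il6ra, Il6st, Csf2ra, Il3ra and Csf2rb. They were taken as a functional family and found through the platform annotation, as the row that names that gene and no other. Each of the 9 had 1 such row, among 19938 genes with a row of their own. The values are log2 intensities, so a difference of 1 is a doubling of signal, and levels were compared between mice for a given gene and not between genes.

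Cells were LSK CD150- progenitors from mouse bone marrow, enriched for cKit+ cells and sorted by flow cytometry at day 18 after injection of pIpC. LSK cells lack lineage markers and carry Sca-1 and Kit, and CD150 marks the long-term stem cells that this gate leaves out. All 6 mice carried floxed Cebpa alleles and received pIpC. The 3 controls were Cebpafl/fl, and the 3 deleted mice were Cebpafl/fl;Mx1Cre, in which pIpC induces the Cre recombinase through an interferon-responsive promoter in blood and other interferon-responsive cells. The controls carried no Cre, so the transgene and the loss of Cebpa cannot be told apart. RNA was amplified and each mouse read on an Affymetrix array of its own (n = 3 for each genotype), a number that limits the precision throughout.

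Kit and Flt3 are receptor tyrosine kinases of the same class as Csf1r, the receptor of macrophage colony-stimulating factor. Binding of stem cell factor or FLT3 ligand pairs the receptors, which then phosphorylate each other and feed the Ras and PI3 kinase pathways. Csf3r, the receptor of granulocyte colony-stimulating factor, and the receptors of interleukin 6, interleukin 3 and granulocyte-macrophage colony-stimulating factor have no kinase of their own and signal through JAK kinases and STAT factors. Cebpa encodes C/EBPα, a transcription factor needed for the step from early progenitors to the granulocyte and monocyte lineage, and Csf3r is a known target of C/EBP factors.

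Cebpa itself read 7.84, 7.85 and 7.73 in control a, b and c and 6.37, 5.82 and 6.09 in deleted a, b and c, and fell by 1.71 ± 0.14 (SE) on the log2 scale (limma adjusted p = 0.000883). Where its probes lie relative to the deleted part is not given in the labels. Array medians lay between 6.22 and 6.23 in controls and between 6.16 and 6.20 in deleted mice. Upper quartiles lay between 7.54 and 7.58 in controls and between 7.47 and 7.52 in deleted mice. Both were thus slightly lower in deleted mice, without overlap, in the values as deposited. Cd34 (11.19 to 11.62) and Ptprc (9.80 to 10.19), which early blood progenitors express and the gate did not use, read far above the median of all values, 6.20, and Slamf1, which encodes CD150, read below it on all 6 arrays (3.48 to 4.86). The T cell genes Cd3e, Cd3d and Cd3g also read below that median throughout, and Ly6a, the gene of Sca-1, was not analysed here. Of 5 measured markers of LSK and progenitor identity, Cd48, a surface protein of multipotent progenitors, rose by 1.00 ± 0.11 (SE, limma adjusted p = 0.00520). The log2 fold change was negative for 3 of the 5 and positive for 2, with a median of -0.27. Those 3 were Cd34 (-0.27), Cd27 (-0.36) and Cd93 (-0.51), which did not pass. According to the labels these were female mice, yet 2 Y chromosome transcripts, from Eif2s3y and Kdm5d, had values from 8.04 to 8.49 in every mouse of both genotypes. How this bears on the receptors was not tested.

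Of the 9 receptor genes, Csf3r, Kit and Flt3 fell after deletion and none rose, at a limma adjusted p under 0.05 over all genes. Over all genes 0.732% fell, 0.702% rose and 1.43% changed in either direction, 286 in number, of which 49.0% were higher. That share was 61.6% after quantile normalization and 65.8% with each array centred on its median. The 6 receptor genes that did not pass were Csf2rb, with a log2 fold change of 0.76, Il6st (0.39), Csf1r (0.17), Il6ra (-0.21), Csf2ra (-0.11) and Il3ra (-0.10). The median log2 fold change was -0.11 over the 9 receptors and 0.03 over all genes. The values of the genotypes did not overlap for 4 receptors, 3 lower and 1 higher, against 21.2% of all genes (8.68% lower and 12.5% higher).

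**Figure D1:**
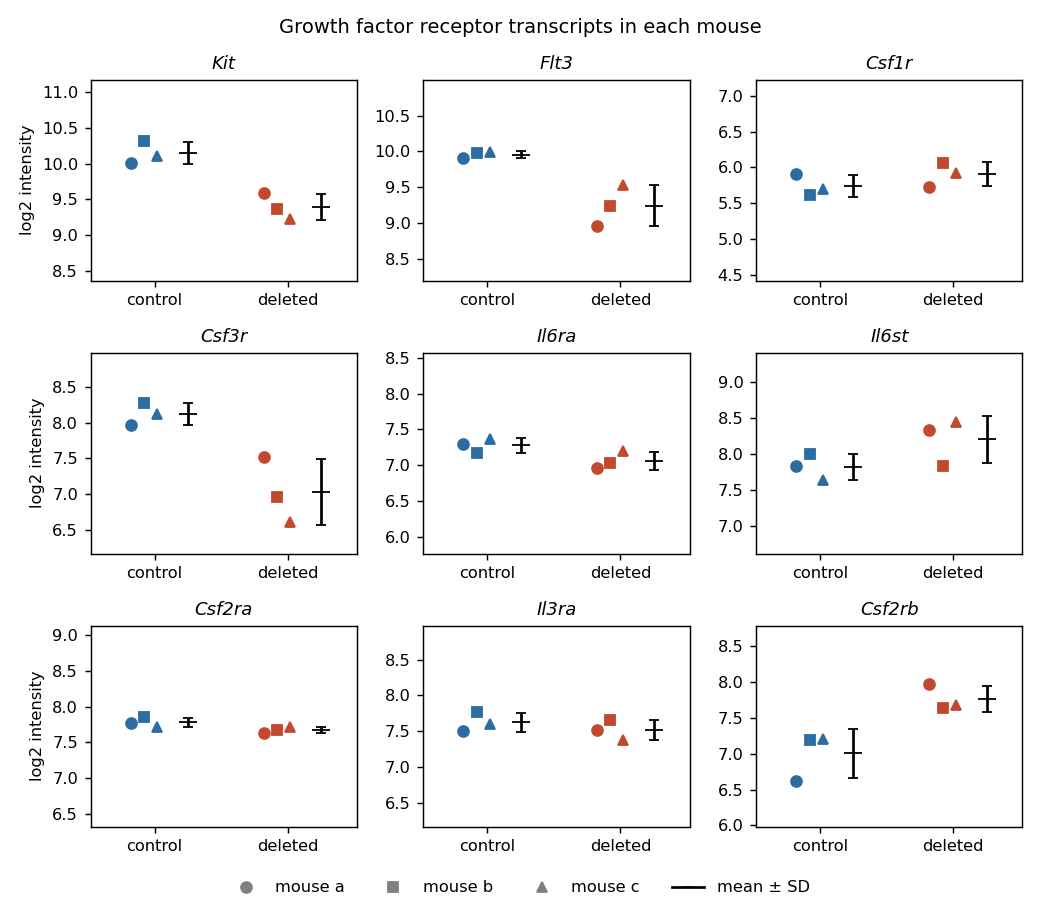
Log2 intensity of the 9 receptor transcripts in each of the 6 mice, with the mean ± SD (n = 3) of each genotype beside the points; every panel spans the same range on the log2 axis. The deleted mice lie below the controls for Kit, Flt3 and Csf3r and above them for Csf2rb, while the genotypes overlap in the other 5 panels.

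Kit, the receptor of stem cell factor, was lower in all 3 deleted mice. It read 10.02, 10.31 and 10.10 in control a, b and c and 9.59, 9.37 and 9.23 in deleted a, b and c. The lowest control and the highest deleted mouse were 0.43 apart, and the SDs were similar, 0.15 in controls and 0.18 in deleted mice. The fall was 1.68-fold (95% interval 1.37 to 2.05; log2 -0.75 ± 0.13 SE, limma adjusted p = 0.0270). Kit protein was part of the sort in both genotypes, so these values compare cells that were all chosen for carrying it.

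Flt3, the receptor of FLT3 ligand on multipotent and lymphoid-primed progenitors, was lower by a similar amount. Controls were close together at 9.90, 9.98 and 9.99, whereas deleted mice were spread over 8.96, 9.24 and 9.53. The SD was 0.05 in controls and 0.29 in deleted mice, and the groups lay 0.37 apart. The fall was 1.64-fold (95% interval 1.31 to 2.05; log2 -0.71 ± 0.14 SE, limma adjusted p = 0.0469). Which deleted mouse was lowest differed between the receptors: deleted c had the lowest Kit and the highest Flt3 of its group, and deleted a the highest Kit and the lowest Flt3. The log2 fold change of Kit minus that of Flt3 was -0.03, and the per-mouse difference overlapped between genotypes (exact two-sided permutation p = 1, adjusted p = 1 over 6 such pairs chosen after their values were seen).

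Csf1r, the third receptor kinase of the family and the one that leads towards macrophages, read 5.91, 5.61 and 5.70 in controls and 5.73, 6.06 and 5.93 in deleted mice. All of these values lay below the median of all values, 6.20, and no detection calls were used to tell signal from background. The log2 fold change was 0.17 ± 0.13 (SE, limma adjusted p = 0.581), with a 95% interval from -0.12 to 0.45.

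Csf3r had the largest change of the 9 receptors. It read 7.97, 8.27 and 8.12 in control a, b and c and 7.52, 6.96 and 6.61 in deleted a, b and c. Deleted mice were thus at least 0.45 below the lowest control, but they differed among themselves, with an SD of 0.46 against 0.15 in controls. The fall was 2.13-fold (95% interval 1.55 to 2.92; log2 -1.09 ± 0.20 SE, limma adjusted p = 0.0376). Per mouse, Csf3r minus Kit lay between -2.05 and -1.99 in controls and between -2.62 and -2.07 in deleted mice, so that Csf3r fell by 0.34 more than Kit. The exact two-sided permutation test of that difference gave p = 0.1, the smallest that 3 against 3 allows, and 0.2 after adjustment over the 6 pairs. Csf3r minus Flt3 lay between -1.93 and -1.71 in controls and between -2.92 and -1.43 in deleted mice, which overlap. Its exact two-sided permutation p was 0.5, and 0.6 after adjustment over the 6 pairs.

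The calls of these receptors depended on single mice. Kit and Csf3r each stayed under the threshold only without deleted a, with adjusted p-values of 0.0359 and 0.0174, and otherwise reached up to 0.101 and 0.130. Flt3 stayed under it only without deleted c (0.0277), reached up to 0.145 without another mouse, and lost its call after quantile normalization (0.0581), median centring (0.0511) and cyclic loess normalization (0.0553). The direction of all 9 receptors was the same in every setting in which they were tested.

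**Figure D2:**
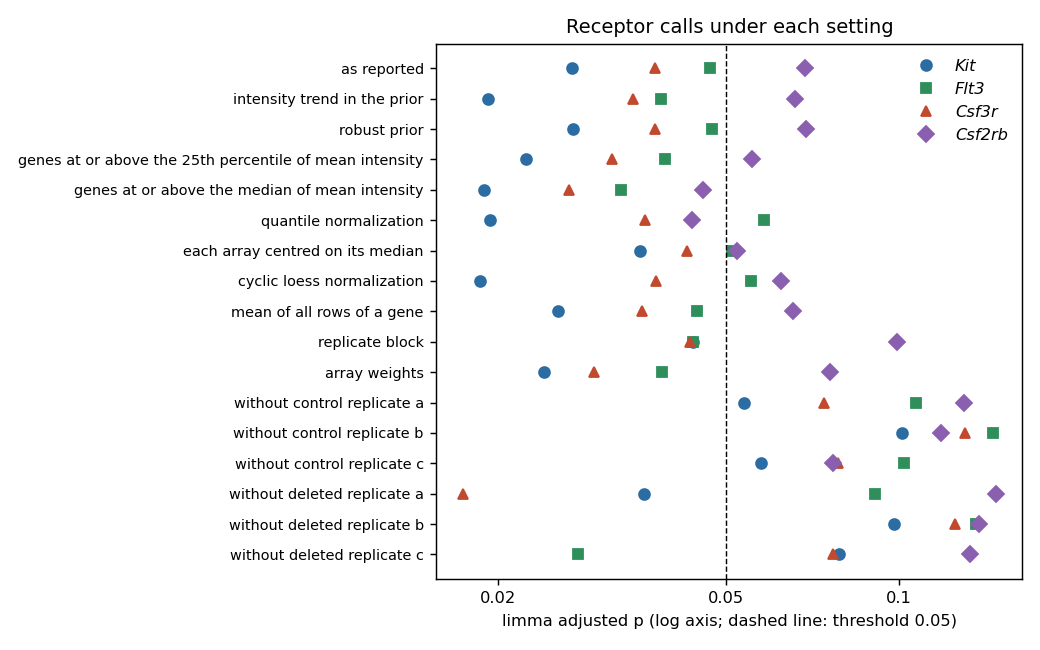
Limma adjusted p (log axis) of Kit, Flt3, Csf3r and Csf2rb as reported and in each of 16 other settings, with the threshold of 0.05 as a dashed line. Kit and Csf3r stay left of the line in all settings that keep the 6 mice, Flt3 crosses it with each of the other normalizations, and Csf2rb lies left of it in 2 settings.

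The sequences before the transcription starts of Kit, Flt3 and Csf3r are shown because these were the receptors that passed the threshold. Whether their promoters have a part in the lower values was not tested. They are the 250 bases upstream of a RefSeq start in build GRCm38.p6, at chr5:75574737-75574986 (plus strand) for Kit, chr5:147400490-147400739 (minus strand) for Flt3 and chr4:126024409-126024658 (plus strand) for Csf3r. The Csf3r window lies inside the span RefSeq gives that gene, ahead of a start downstream of its first. Capitals mark matches, on either strand, to the C/EBP half-site ATTGC, whose other strand reads GCAAT, or to the PU.1 core GAGGAAG, whose other strand reads CTTCCTC; the longer C/EBP site TTNNGCAA was also searched and has no match in these windows. The motifs were chosen with the sequences in view.
Kit: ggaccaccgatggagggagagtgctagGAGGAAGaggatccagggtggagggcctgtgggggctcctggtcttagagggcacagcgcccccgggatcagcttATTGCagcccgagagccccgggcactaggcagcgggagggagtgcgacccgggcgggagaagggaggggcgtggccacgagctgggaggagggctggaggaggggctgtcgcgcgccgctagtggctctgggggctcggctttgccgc
Flt3: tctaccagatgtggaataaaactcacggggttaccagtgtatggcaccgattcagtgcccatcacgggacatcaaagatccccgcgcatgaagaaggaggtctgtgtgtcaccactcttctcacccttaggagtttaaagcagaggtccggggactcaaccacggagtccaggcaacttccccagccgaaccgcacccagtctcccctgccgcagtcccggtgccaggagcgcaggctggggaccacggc
Csf3r: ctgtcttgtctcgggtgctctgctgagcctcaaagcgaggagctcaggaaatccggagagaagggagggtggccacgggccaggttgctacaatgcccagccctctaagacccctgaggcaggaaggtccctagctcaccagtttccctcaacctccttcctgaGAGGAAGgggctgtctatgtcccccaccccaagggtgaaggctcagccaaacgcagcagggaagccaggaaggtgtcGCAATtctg
In Csf3r the half-site ends 5 bases before the start, at -9 to -5, and the PU.1 core lies at -86 to -80. Kit has the half-site at -148 to -144 and the PU.1 core at -223 to -217. Flt3, with a fall close to that of Kit, has neither string. Among 27025 genes with such a window, the first listed for each, 23.3% hold ATTGC, 10.4% GAGGAAG and 9.55% TTNNGCAA. Of 7 receptor genes matched in the table, 4 hold ATTGC (Kit, Csf3r, Il6ra and Il3ra), 3 hold GAGGAAG (Kit, Csf3r and Csf2ra) and 1 holds TTNNGCAA (Il3ra). Il6ra and Il3ra thus hold the half-site and did not pass the test of expression. A match describes letters and is not evidence of binding.

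Il6ra, the ligand-binding chain for interleukin 6, and Il6st, the gp130 chain that signals for interleukin 6 and its relatives, did not pass. Il6ra read 7.29, 7.17 and 7.37 in controls and 6.96, 7.03 and 7.20 in deleted mice, which overlap at control b and deleted c. Its log2 fold change was -0.21 ± 0.11 (SE, limma adjusted p = 0.391). Il6st read 7.83, 7.99 and 7.63 in controls and 8.33, 7.83 and 8.45 in deleted mice, where deleted a and c were above every control and deleted b was not. Its log2 fold change was 0.39 ± 0.17 (SE, limma adjusted p = 0.304), with a 95% interval from 0.01 to 0.76 before any adjustment for the number of genes. Per mouse, Il6st minus Il6ra lay between 0.26 and 0.82 in controls and between 0.80 and 1.38 in deleted mice, with overlap. Its exact two-sided permutation p was 0.2, and 0.3 after adjustment over the 6 pairs.

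The receptors of interleukin 3 and granulocyte-macrophage colony-stimulating factor each join a private alpha chain, Il3ra or Csf2ra, to a beta chain, Csf2rb, that carries the signal for both. The alpha chains differed little between genotypes. Csf2ra read 7.77, 7.85 and 7.72 in controls and 7.63, 7.67 and 7.72 in deleted mice (log2 -0.11 ± 0.10 SE, limma adjusted p = 0.661), and its 95% interval allows changes from a fall of 0.32 to a rise of 0.11. Il3ra read 7.50, 7.77 and 7.60 in controls and 7.53, 7.66 and 7.38 in deleted mice (log2 -0.10 ± 0.12 SE, limma adjusted p = 0.739), with a 95% interval from -0.37 to 0.16. Both alpha chains overlapped between genotypes.

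The beta chain Csf2rb read 6.61, 7.20 and 7.21 in control a, b and c and 7.97, 7.63 and 7.68 in deleted a, b and c. Every deleted mouse was above every control, by at least 0.43, and control a stood below the other controls. The log2 fold change was 0.76 ± 0.17 (SE), a ratio of 1.69 (95% interval 1.30 to 2.21), with a limma adjusted p of 0.0687. It passed after quantile normalization (0.0437) and when only the brighter genes, those with a mean no lower than the median gene, were tested (0.0456), and over all other settings the adjusted p reached 0.147. Csf2rb minus Csf2ra lay between -1.16 and -0.51 in controls and between -0.04 and 0.34 in deleted mice, and Csf2rb minus Il3ra between -0.89 and -0.39 against -0.03 and 0.45. Neither difference overlapped between genotypes (exact two-sided permutation p = 0.1 for each, the smallest possible, and 0.2 after adjustment over the 6 pairs). Csf2rb2, the closely related second beta chain of mice that serves interleukin 3 alone, read 6.53 to 6.87 in controls and 6.70 to 7.20 in deleted mice (log2 0.31 ± 0.15 SE, limma adjusted p = 0.350). Their probes may read each other's transcripts, which was not tested.

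**Figure D3:**
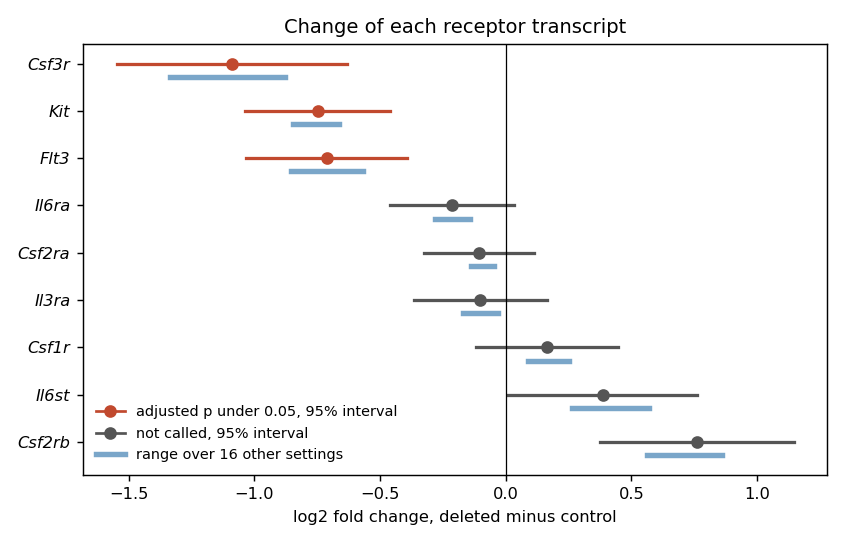
Log2 fold change, deleted minus control, of each receptor transcript with its 95% interval from limma (red where the adjusted p is under 0.05), and under it in blue the range of the fold change over 16 other settings. Csf3r (-1.09), Kit (-0.75) and Flt3 (-0.71) lie left of 0 and Csf2rb (0.76) right of it, and no blue range crosses 0.

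Other transcripts had changes across the 6 mice much like those of the receptors that fell. Likeness was the root mean square difference between the values of both genes, each centred on its own mean, among 9447 candidate genes of the brighter part of the array. Nearest to Kit were Vamp1, a vesicle fusion protein, at 0.07, Frrs1, a ferric reductase, at 0.08, and Zc3h7a at 0.08, where the values of Kit themselves spread over 0.40. Nearest to Flt3 (0.39) were Itgb5, an integrin subunit, at 0.05, Emb, a cell surface protein, at 0.07 and Pdzk1ip1 at 0.08. Csf3r (0.61) had no neighbour as close, with Phlda2 at 0.20, Fndc9 at 0.21 and Sgms1, a sphingomyelin synthase, at 0.22. These are descriptions over 6 mice.

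Markers of other blood cells moved as well, and each array read pooled cells of a mouse, so fewer cells of a type and less RNA per cell cannot be told apart. Of 12 neutrophil markers, S100a8, S100a9 and Camp fell, none rose and 9 had a negative log2 fold change. For Camp the call held only without control b or without deleted a, and the adjusted p otherwise reached 0.0915 when a mouse was left out. The summed intensity of the list, on the linear scale, was 1319 to 1563 in controls and 506 to 546 in deleted mice, while Ltf, Ly6g, Mmp8, Mmp9, Lcn2 and Retnlg read below the median of all values on all 6 arrays. Without S100a8, S100a9 and Camp the sum was 377 to 404 in controls and 367 to 378 in deleted mice. Of 8 markers of granulocyte and monocyte precursors none passed, and their sum overlapped between genotypes (3315 to 3943 against 3418 to 4918). Mpo, the brightest of the 8 (10.86 to 11.85), weighed most in that sum. The log2 fold change was negative for 6 of the 8 and positive for 2, with a median of -0.19. Elane had the smallest p (log2 -0.57 ± 0.15 SE, limma adjusted p = 0.103). The part of either list in the fall of Csf3r was not tested.

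Of 8 stem cell markers, Hlf, Mecom and Procr fell, none rose, and the sum was 1464 to 1591 in controls and 717 to 865 in deleted mice, with Slamf1 below the median of all values throughout. Without those 3 genes the sum was 348 to 389 in controls and 317 to 375 in deleted mice. Of 10 markers of mast cells, in which Kit is abundant, and of basophils, 2 rose and none fell. Cpa3 rose by 3.47 ± 0.12 (SE, limma adjusted p = 2.2e-06) and Gzmb by 2.20 ± 0.43 (SE, limma adjusted p = 0.0438). Of the 10, 6 had a positive log2 fold change, with a median of 0.10. The sum of the list was 671 to 708 in controls and 3016 to 4150 in deleted mice, and without Cpa3 and Gzmb it was 374 to 426 in controls and 395 to 406 in deleted mice. Ms4a2, Fcer1a, Hdc, Prss34, Cma1 and Cd200r3 read below the median of all values on all arrays. Gzmb lost its call without any mouse except deleted a (adjusted p up to 0.124) and with a robust prior (0.0507). Of 9 dendritic cell markers, for cells that carry Flt3, none passed (sum 1464 to 1955 against 1485 to 1600), and of 7 markers of monocytes and macrophages Cd68 fell (sum 574 to 608 against 473 to 547). The log2 fold change was positive for 5 of the 7 (median 0.10), and without Cd68 the sum was 319 to 374 in controls and 346 to 415 in deleted mice. Of 8 markers of stroma and endothelium Emcn fell, a call lost whichever mouse was left out (adjusted p up to 0.125). The log2 fold change was positive for 5 of the 8 (median 0.02). Without Emcn the sum was 671 to 754 in controls and 809 to 885 in deleted mice. None passed of 7 B lineage, 8 T and NK cell, 4 erythroid and 5 megakaryocyte markers. For the B lineage 6 of 7 were positive (median 0.22), and the sum was 719 to 745 in controls and 853 to 941 in deleted mice. The part of these lists in the values of Kit, Flt3 and Csf1r was not tested.

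The ligands of these receptors gave little signal in the sorted cells. Of 11 measured ligand genes none passed, 8 read below the median of all values on all 6 arrays, and the median log2 fold change was -0.00. Kitl, the gene of stem cell factor, read 4.42 to 4.70 in controls and 4.42 to 4.49 in deleted mice, and Flt3l read 6.60 to 6.92 and 6.19 to 6.74. Il6 had the smallest p of the list, with a log2 fold change of 0.53 ± 0.23 (SE, limma adjusted p = 0.286) from values below 4.34.

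Related receptors mostly did not pass. Of 18 other cytokine receptors none passed, although 13 had a positive log2 fold change, with a median of 0.14. Lifr, a partner of gp130, had the smallest p (log2 0.49 ± 0.12 SE, limma adjusted p = 0.0928), from low values of 4.48 to 5.25. It was among 7 of the 18 that read below the median of all values on all 6 arrays. Of 15 other receptor tyrosine kinases Pdgfrb, a platelet-derived growth factor receptor of the class of Kit and Flt3, rose by 0.99 ± 0.13 (SE, limma adjusted p = 0.0104), from 6.68, 6.76 and 7.08 to 7.95, 7.75 and 7.79. Its call was lost without control b (adjusted p = 0.0541). No other gene of the list passed in either direction. The log2 fold change was positive for 8 of the 15 and negative for 7 (median 0.00), among them Tie1 (-0.58, limma adjusted p = 0.0687), Tek (-0.46, 0.0965) and Igf1r (-0.50, 0.115). Of the 15, 8 read below the median of all values on all 6 arrays, Tek among them.

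The kinases and adaptors under the receptors did not pass either. Of 9 JAK and STAT genes none passed (median 0.04), with Stat4 at -0.48 ± 0.18 (SE, limma adjusted p = 0.230). Of 23 adaptors and kinases none passed (median 0.06), with Pik3cb, a catalytic subunit of PI3 kinase, at 0.33 ± 0.10 (SE, limma adjusted p = 0.146). At an unadjusted limma p under 0.05 there were 3 of 11 ligand genes and 5 of 18 other cytokine receptors. There were also 1 of 9 JAK or STAT genes and 5 of 23 adaptors or kinases, against 15.9% of all genes. The lists with called genes held 5 of 15 other receptor tyrosine kinases and 10 of 31 inhibitors of signalling. They also held 5 of 17 induced transcripts and 9 of 20 transcription factors, Cebpa among the last.

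Genes that restrain or follow receptor signalling moved in both directions. Of 31 inhibitors, Socs6, an adaptor of the SOCS family that binds Kit, rose by 1.02 ± 0.20 (SE, limma adjusted p = 0.0409) and Ptpn1, a tyrosine phosphatase, by 0.67 ± 0.12 (SE, 0.0293), while Dusp6, a phosphatase of ERK kinases, fell by 1.06 ± 0.20 (SE, 0.0374). Socs6 was 0.45 with an adjusted p of 0.117 when all rows of the gene were averaged. Of 17 transcripts induced by receptors, Pim1 and Pim2, kinases switched on by STAT factors, rose by 0.69 ± 0.13 (SE, limma adjusted p = 0.0426) and 0.84 ± 0.13 (SE, 0.0186), and Etv5, an ETS factor downstream of ERK, fell by 1.53 ± 0.22 (SE, 0.0132). Etv5 has 2 rows, and its log2 fold change lay between -1.53 and -0.94 over the other settings that kept all 6 mice (limma adjusted p up to 0.0176). In deleted mice it read 5.04 to 5.80, below the median of all values. Leaving out single mice ended each of these calls, with adjusted p-values of up to 0.134 for Socs6, 0.103 for Ptpn1, 0.107 for Dusp6, 0.130 for Pim1, 0.0781 for Pim2 and 0.0548 for Etv5, the last only without control b.

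Of 20 transcription factors tied to receptor genes, 2 rose and 2 fell, against 0.702% and 0.732% of all genes. Of the 2 that fell, 1 was Cebpa, the gene that the design deletes. Cebpg rose by 0.73 ± 0.12 (SE, limma adjusted p = 0.0240) and Cebpd by 0.55 ± 0.10 (SE, 0.0336), while Cebpa and Meis1, a homeodomain factor of stem cells, fell (Meis1 by 0.89 ± 0.12 SE, 0.0117). Cebpd lost its call whichever mouse was left out (up to 0.120), Cebpg without control b or any deleted mouse (up to 0.0881) and Meis1 without control b or deleted b (up to 0.0554). Spi1, which encodes PU.1, read 7.97 to 8.07 in controls and 8.13 to 8.54 in deleted mice without overlap, and did not pass (log2 0.30 ± 0.12 SE, limma adjusted p = 0.274).

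**Figure D4:**
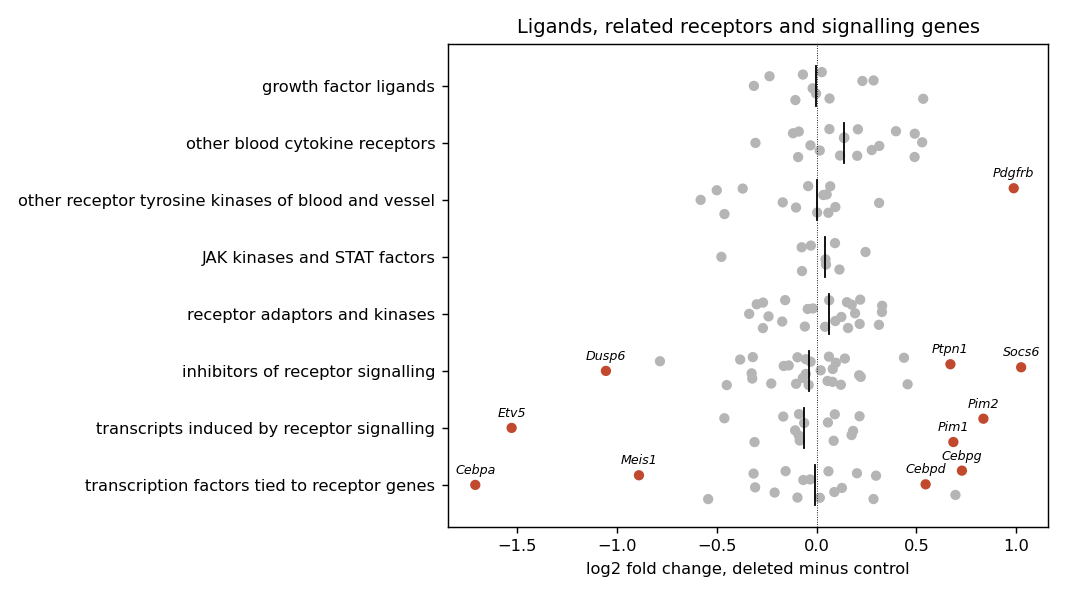
Log2 fold change, deleted minus control, of every measured gene in 8 lists of ligands, related receptors and signalling genes; red points with names have a limma adjusted p under 0.05, grey points do not, and black bars are list medians. Named genes lie on both sides of 0 in the lists of inhibitors, induced transcripts and transcription factors, and the lists of ligands, cytokine receptors, JAK and STAT genes and adaptors hold none.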

How the data were processed

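The authors deposited log2 intensities of 35556 probe sets for 6 arrays. Per the submitters' processing notes the tools were Affymetrix Expression Console 1.1.2 and RMA, a method of background correction, normalization and probe summary. Its settings are not given in those notes, and deposited values were used as they were.

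Rows were named through the platform annotation (21789 name 1 gene, 1621 several, 12146 unnamed here), and the row with the highest mean was kept per gene, giving 19938 genes. No dim rows were removed. The test was limma 3.58.1 (R 4.3.3), two-sided, with moderated standard errors and Benjamini-Hochberg adjustment over all genes. The fit was tested on 10 simulated data sets with 200 changed genes each. It recovered 15.4% of changes of log2 0.5, 91.4% of log2 1 and 100% of log2 2. Of all calls in the simulations 5.63% were false. Most changes of log2 0.5 were thus missed, which limits what a gene that did not pass can show. Permutation tests, motifs and figures used Python 3.11.15, SciPy 1.17.1 and matplotlib 3.10.9. Promoter sequences and gene names are from RefSeq (GRCm38.p6).

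The receptors and the gene lists were chosen with earlier results of these data known. The text names all receptors, Cebpa and Csf2rb2, up to 4 called genes of each list or the smallest p, called markers and the 3 nearest patterns; Spi1, Kitl, Flt3l, Cd34, Ptprc and low markers were added. The 16 alternatives changed the prior, intensity filter, normalization, row choice, replicate block, array weights or left out 1 mouse.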

Additional observations from a re-analysis of the deposited data

How the results depend on the processing

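The 9 receptors kept their direction in all 143 tests under other settings. In 123 of these they also stayed on the same side of the threshold, in 18 a call was lost and in 2 Csf2rb gained it. Csf1r dropped out when only genes no dimmer than the median gene were tested. The count of changed genes, 286, was 438 with that filter and 53 to 250 when 1 mouse was left out, lowest without control b. The count of changed receptors, 3, was 0 to 2 when 1 mouse was left out: 2 without deleted a, 1 without deleted c and 0 without any other mouse. The cause was not tested, beyond fewer samples.

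The letters of the sample titles showed no clear pairing of the mice in expression. Deviations from the group means correlated across genes at -0.01, -0.04 and 0.06 for mice of the same letter. For mice of different letters they correlated at -0.10 to 0.11. These values cannot tell whether the mice were paired in some other way. With the letter as a replicate block 274 genes and 3 receptors changed, and among the genes named here Ptpn1, Pim1, Cebpd, Frrs1, Fndc9 and Emcn lost their call. Kitl, with low signal, had a log2 fold change of -0.07, which lay between -0.12 (without control b) and 0.023 (without control a, where its sign turned) when 1 mouse was left out. Low signal limits Csf1r, most ligand genes and part of the other lists, and 3 arrays per genotype limit every comparison.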
